A study of Mus musculus with 8 samples.

Results

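Extracellular vesicles of the exosome type bud inward into late endosomes and leave the cell when those endosomes fuse with the plasma membrane. The 36 genes described here encode the proteins that carry out this route: the tetraspanins of the vesicle membrane, the ESCRT complexes that sort cargo and cut the vesicle neck, the syntenin and syndecan branch, the Rab GTPases with their effectors, and flotillins, caveolin and annexin of membrane rafts. They were chosen by name from this biology, with earlier results of these data known, and all 36 were found among the 55416 genes of the deposited table.

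Liver RNA was sequenced from 4 floxed controls (genotype Alb-cre-) and 4 hepatocyte *Smpd3* knockouts (Alb-cre+), all on 9 weeks of HFMCD, a diet used to produce steatohepatitis. Alb-cre is a Cre recombinase under the albumin promoter, active in hepatocytes. Whether every other cell type of the liver kept the gene was not tested. Both groups carried loxP-flanked *Smpd3* and differed in Cre, so effects of Cre itself and of losing *Smpd3* cannot be told apart. Strain, sex and age were not given in the sources used here, and the labels do not state that each library came from its own animal, so p-values speak for the spread among these libraries, which may be technical. The question asked of the data was whether the transcripts of the vesicle machinery differed with the loss of *Smpd3* on this diet.

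*Smpd3* encodes neutral sphingomyelinase 2, which makes ceramide on the cytosolic face of membranes. Ceramide is known to promote inward budding of endosomal vesicles without the ESCRT proteins, and blocking this enzyme is a common way to lower exosome release in cultured cells. ESCRT-0 gathers ubiquitinated cargo, ESCRT-I and ALIX recruit the later parts, ESCRT-III filaments constrict the neck, and the VPS4 ATPases take the filaments apart. Bulk liver RNA cannot tell fewer cells of a type from less RNA per cell.

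Values are TPM (transcripts per fixed library total), abundances corrected for transcript length and scaled to each library's total, so levels may be compared between genes, while sequencing depth is unknown. *Smpd3* stood at 8.69, 10.72, 12.54 and 6.38 TPM in controls 1 to 4 and at 1.17, 3.03, 1.27 and 2.06 TPM in knockouts 1 to 4. Every knockout lay below every control. The log2 fold change of the knockouts over the controls, taken on log2(TPM + 1), was -1.89 ± 0.24 (SE) and its adjusted p from limma (Benjamini-Hochberg) was 0.0300. Leaving out control 1, control 2, knockout 1, knockout 3 or knockout 4 brought that adjusted p to 0.0874, 0.0558, 0.0727, 0.0680 and 0.0505, with the fold change between -2.06 and -1.76 over the 8 single omissions. The added 1 shrinks fold changes of values this low. With 0.1 added in its place the log2 fold change was -2.34 ± 0.31 (SE). Mean TPM in the knockouts was 19.6% of that in the controls.

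No vesicle gene passed an adjusted p of 0.05 in limma, over 34 genes tested. The background was 0.102% of all 12710 genes tested, or 13 genes (6 higher in the knockout, 0.0472%, and 7 lower, 0.0551%), a number that was 0 without control 1 or knockout 3, 2 without knockout 2, 3 without control 4 and 5 without knockout 1. At an unadjusted p under 0.05, 2 of the 34 (*Stam* and *Sdc2*, 5.88%) passed, against 8.02% of all genes tested. Without control 3 or knockout 4 that count was 1 (7.17% and 6.25% of all genes tested). Without control 2 or knockout 1 it was 3 (7.82% and 10.98%). The 2 genes not tested, *Rab27b* and *Sytl4*, did not reach 1 TPM in 4 libraries. The median log2 fold change of the 34 was 0.04, and that of all genes tested was 0.05. The median size of the change, regardless of sign, was 0.07 for the vesicle genes and 0.11 for all genes tested. All genes tested were not matched to the vesicle genes by level, so the smaller value is not read as a trait of the vesicle genes.

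The intervals show how large a difference these libraries leave room for. In 28 of the 34 genes the 95% interval of the limma fold change lay within 0.5 of 0 on the log2 scale. The other 6 were *Cd9*, *Cd63*, *Stam*, *Arf6*, *Rab35* and *Cav1*, and in all 34 the interval lay within 1. The widest was that of *Cav1*, from -0.57 to 0.90. These intervals are on log2(TPM + 1), where the added 1 shrinks the fold changes of genes near 1 TPM. With a pseudocount of 0.1 the log2 fold change of *Exph5* was 0.27 ± 0.24 (SE), against 0.17 ± 0.15 with 1. For *Cav1*, *Exph5* and *Rab27a* the intervals therefore bound the fold change of TPM itself less tightly.

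**Figure D1:**
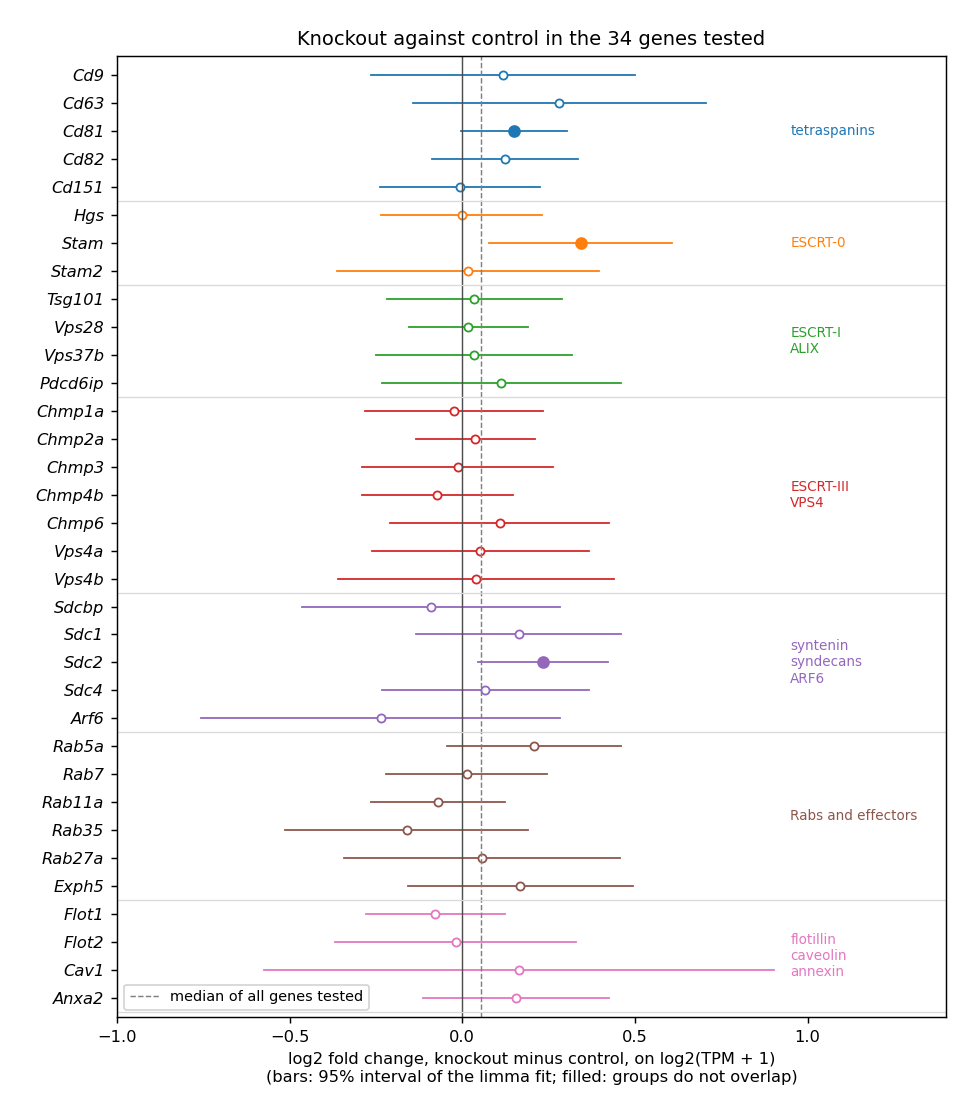
Log2 fold change of the 34 tested vesicle genes, knockout over control from log2(TPM + 1) (x axis), grouped by role (y axis). Points are limma estimates, bars their 95% intervals, filled points the 3 genes whose groups did not overlap, and the dashed line the median of all genes tested, 0.05; 28 of the intervals lie within 0.5 of 0.

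Higher values in the knockout were seen in 23 of the 34 and lower values in 11, which changed to 15 and 19 after median-of-ratios scaling, which lines libraries up on their typical gene, and after quantile normalization. Of all genes tested, 64.6% were higher as deposited and 50.0% after median-of-ratios scaling. Leaving out 1 library also moved the split, to 13 higher and 21 lower without control 4, 28 and 6 without control 1, 27 and 7 without knockout 1, and 18 and 16 without knockout 2 or knockout 4. Among all genes tested the share that was higher ran from 48.7% without control 4 to 72.5% without knockout 1.

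Control 4 held the lowest value of the 8 libraries in 23 of the 36 genes, knockout 1 in 7, and no other library in more than 2. After median-of-ratios scaling control 4 was lowest in 6 of 36 and highest in another 6. The scaling factor of control 4 was 0.833, against 0.912 in knockout 1 and 0.991 to 1.09 in the other libraries, and 12115 genes reached 1 TPM in it, where the other libraries had 12474 to 12890. Mitochondrial transcripts made up 8.85% of its total (others 6.67 to 7.98%) and its top 20 genes 33.8% (others 28.6 to 31.4%), and limma gave it the lowest library weight, 0.35 (others 0.49 to 1.54). Its summed hepatocyte markers were the highest of the 8 (87716 TPM, others 67252 to 84852). Its summed endothelial markers, 97.9 TPM, were the lowest (others 124 to 210 TPM), as were those of macrophages, 1170 TPM (others 1596 to 2240 TPM), and of stellate cells, 327 TPM (others 553 to 781 TPM). By genotype, the 11 hepatocyte markers summed to 74321 to 87716 TPM in controls against 67252 to 74826 TPM in knockouts, with 9 of the 11 lower in the knockout. Of the markers tested, 11 of 12 endothelial ones were lower in the knockout, and 10 of 12 stellate cell, 6 of 6 cholangiocyte, 7 of 8 lymphocyte and 7 of 12 macrophage markers were higher, with 3 of 4 neutrophil markers lower. Among all genes tested 64.6% were higher as deposited, and 48.7% without control 4. The macrophage sums were 1170 to 2099 and 1596 to 2240 TPM, and the stellate cell sums 327 to 702 and 553 to 781 TPM, respectively. Without control 4 the control sums were 1976 to 2099 TPM for macrophages and 665 to 702 TPM for stellate cells. Lymphocyte markers summed to 18.3 to 45.8 and 27.8 to 47.8 TPM and neutrophil markers to 37.7 to 64.2 and 51.0 to 58.0 TPM. No marker of these lists passed in limma, and only *Ly6g* and *Mpo*, of neutrophils, were listed at 0 in any library. The part of these cell types in the low vesicle gene values was not tested.

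**Figure D2:**
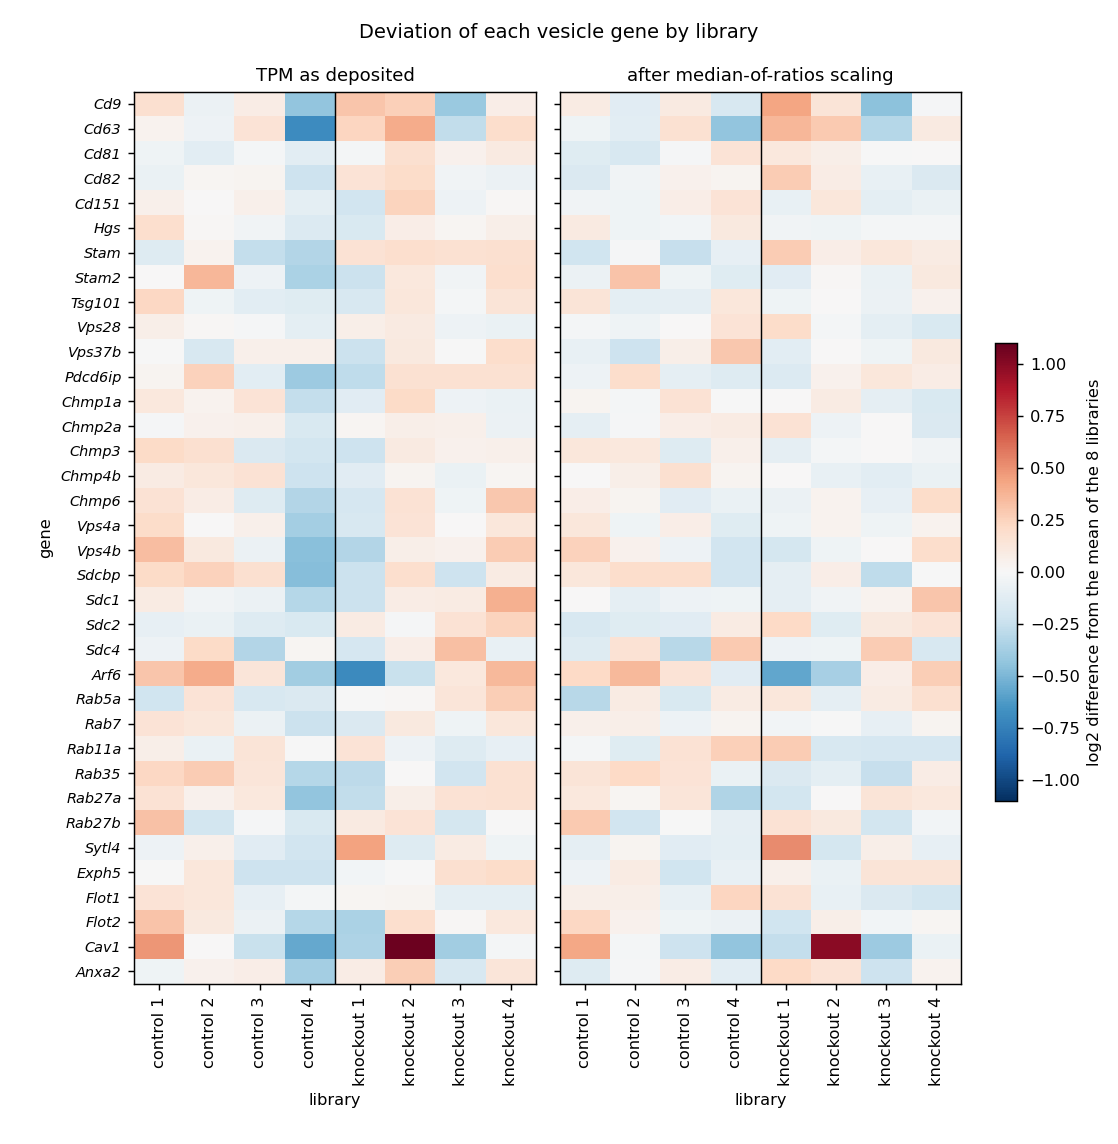
Log2 difference of each of the 36 vesicle genes (y axis) from its mean over the 8 libraries (x axis), as deposited and after median-of-ratios scaling, with controls left of the line and knockouts right of it. The column of control 4 is mostly blue in the left panel, where it is lowest in 23 genes, and mixed in the right panel, where it is lowest in 6.

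The genes spanned more than 2 powers of 10 in level. Of the 36, 9 had a mean above 100 TPM: *Cd81* (255 TPM), *Anxa2* (213 TPM), *Rab7* (175 TPM), *Cd63* (174 TPM), *Sdc4* (160 TPM), *Chmp2a* (129 TPM), *Rab11a* (121 TPM), *Cd9* (112 TPM) and *Vps28* (103 TPM). A further 20 lay between 10 and 100 TPM, *Stam* and *Stam2* between 3 and 10 TPM, and 5 below 3 TPM. These last were *Cav1*, *Exph5*, *Rab27a*, *Sytl4* and *Rab27b*, at means of 1.82, 1.52, 1.12, 0.92 and 0.48 TPM. Thus 4 of the 5 least abundant genes belong to the RAB27 branch, which docks secretory endosomes at the plasma membrane. The spread over all 8 libraries, as a coefficient of variation of the deposited values, ran from 5.22% for *Vps28* and 5.38% for *Chmp2a* to 68.8% for *Cav1*.

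**Figure D3:**
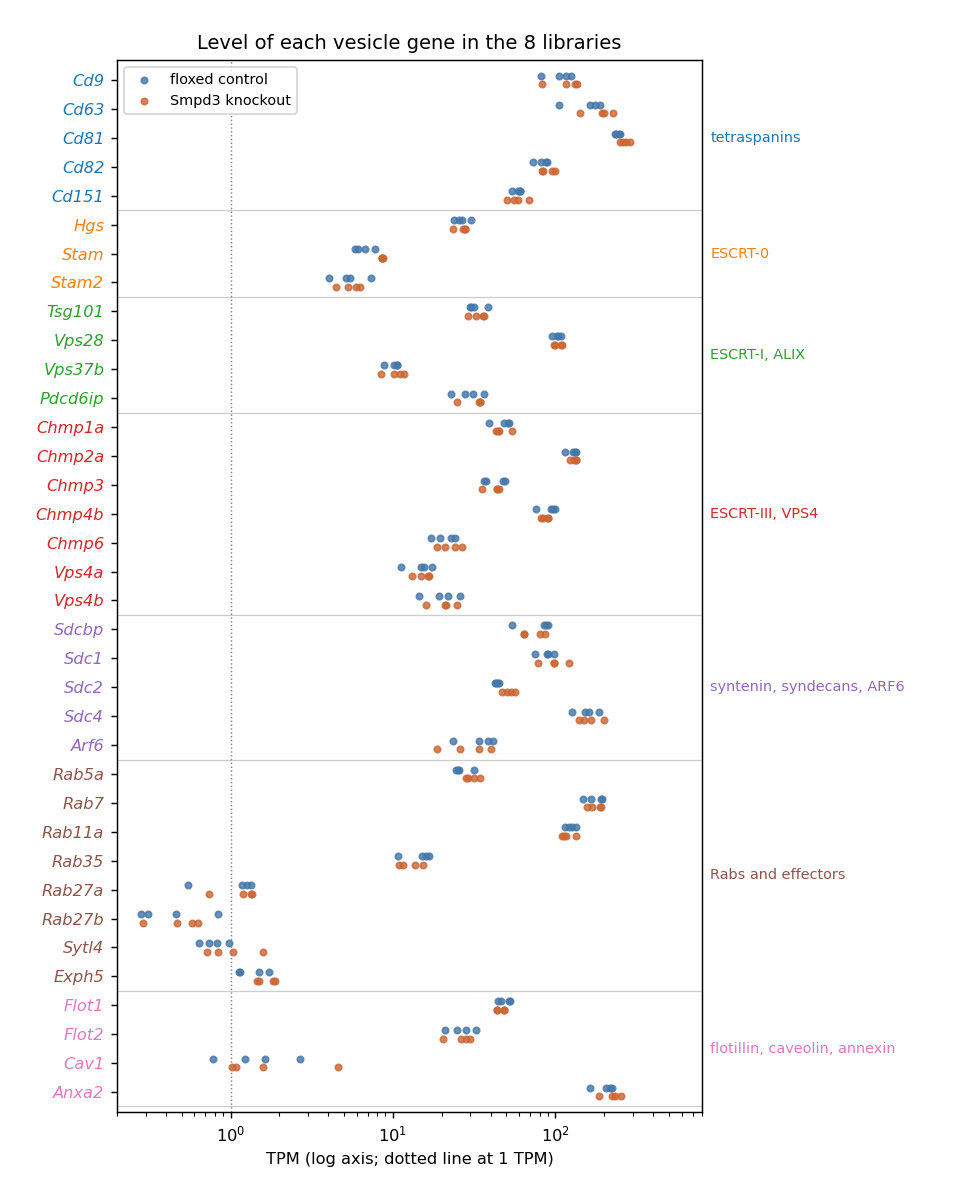
TPM on a log axis (x) for each of the 36 vesicle genes (y), with 1 point per library, controls above and knockouts below. *Cd81* is highest at a mean of 255 TPM and *Rab27b* lowest at 0.48 TPM, left of the dotted line at 1 TPM.

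In 3 of the 34 genes the groups did not overlap, all higher in the knockout (8.82%, against 4.74% of all genes tested, 3.29% higher and 1.46% lower). These were *Stam*, *Sdc2* and *Cd81*. After median-of-ratios scaling only *Stam* remained (5.77% of all genes tested did not overlap), and after quantile normalization *Stam* and *Cd81* (5.81%). Leaving out 1 library added genes in both directions. Without control 4, *Chmp4b* was added as lower in the knockout (controls 94.53 to 99.16 TPM, knockouts 81.28 to 90.64 TPM), where 8.43% of all genes tested did not overlap. Without control 2, *Rab5a* was added as higher (8.39% of all genes tested). Without knockout 3 the count was 5, with *Cd63* and *Anxa2* added as higher (6.66% of all genes tested).

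Promoter sequence is shown for the genes whose groups did not overlap, and for those with the palindrome TCACGTGA of CLEAR elements. CLEAR elements are bound by TFEB, which switches on lysosomal genes, and their core is the E-box. Windows of 250 bases before the transcription start were taken from RefSeq (GRCm38.p6), which held 36 windows for 28 of the 36 genes, and none for *Sdc2*, *Vps28*, *Vps37b*, *Chmp6*, *Sdcbp*, *Arf6*, *Rab27b* and *Flot1*. Both strands were searched for the E-box CACGTG, the palindrome TCACGTGA that contains it, the GC box GGGCGG, the CCAAT box CCAAT and the TATA box TATAAA. The windows are chr2:14073850-14074099 (+) for *Stam*, chr7:143052500-143052749 (+) for *Cd81*, chr17:53478984-53479233 (+) for *Rab5a* and chr9:113708260-113708509 (-) for *Pdcd6ip*, printed 5′ to 3′ on the gene's strand with every match in capitals.
Stam: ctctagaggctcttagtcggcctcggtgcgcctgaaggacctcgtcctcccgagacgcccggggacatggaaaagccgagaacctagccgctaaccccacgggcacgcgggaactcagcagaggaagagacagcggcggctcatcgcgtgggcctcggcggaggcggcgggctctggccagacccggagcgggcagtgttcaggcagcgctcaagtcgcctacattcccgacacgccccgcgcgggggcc
Cd81: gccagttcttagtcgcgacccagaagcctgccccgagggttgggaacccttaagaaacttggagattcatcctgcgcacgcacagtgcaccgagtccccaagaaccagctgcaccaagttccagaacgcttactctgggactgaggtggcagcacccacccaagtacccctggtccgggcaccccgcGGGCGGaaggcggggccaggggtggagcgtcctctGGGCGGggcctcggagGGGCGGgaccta
Rab5a: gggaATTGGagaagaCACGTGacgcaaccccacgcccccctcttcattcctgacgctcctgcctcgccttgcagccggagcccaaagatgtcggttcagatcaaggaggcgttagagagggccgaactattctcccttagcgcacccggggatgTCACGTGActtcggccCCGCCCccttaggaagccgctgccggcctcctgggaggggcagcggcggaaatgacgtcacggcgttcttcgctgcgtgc
Pdcd6ip: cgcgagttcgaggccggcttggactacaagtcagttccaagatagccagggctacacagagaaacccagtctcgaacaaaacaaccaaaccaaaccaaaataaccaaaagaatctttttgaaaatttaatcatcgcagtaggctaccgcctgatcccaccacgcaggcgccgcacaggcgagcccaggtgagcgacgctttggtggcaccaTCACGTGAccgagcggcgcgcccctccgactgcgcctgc

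The window of *Stam* held none of the 5 motifs, and that of *Cd81* held 3 GC boxes, starting 63, 28 and 12 bases before the start. The palindrome TCACGTGA was found in *Rab5a*, 96 bases before the start, and in *Pdcd6ip*, 39 bases before it, or 2 of 36 windows (5.56%) against 0.785% of all 32851 windows. *Rab5a* also held a CCAAT box, a second E-box and a GC box, 246, 235 and 80 bases before the start, and *Rab27a* was the third gene with an E-box (3 of 36 windows, 8.33%, against 6.02% of all). The GC box was in 20 of 36 windows (55.6%, against 32.7% of all), the CCAAT box in 10 (27.8%, against 33.8%) and the TATA box in 3 (8.33%, against 12.4%). The 20 windows with a GC box belong to 19 genes. The set of all windows was not matched to the vesicle genes by level, so these shares are not read as enrichment. A match of letters is a description and not evidence of binding.

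*Stam* (ENSMUSG00000026718) encodes an ESCRT-0 subunit that binds ubiquitin beside HRS. It stood at 6.71, 7.74, 6.10 and 5.81 TPM in controls 1 to 4 and at 8.51, 8.65, 8.54 and 8.62 TPM in knockouts 1 to 4. The 4 knockouts lay within a narrow band above every control, with control 2 the nearest. The means were 6.59 ± 0.85 and 8.58 ± 0.066 TPM (SD, 4 libraries each). The difference on the log2 scale, 0.34 ± 0.12 (SE), did not pass (adjusted p = 0.449 and unadjusted p = 0.0166 in limma). After median-of-ratios scaling the controls lay at 6.15 to 7.42 and the knockouts at 7.97 to 9.34 scaled TPM.

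Its paralog *Stam2* (ENSMUSG00000055371) stood at 5.45, 7.28, 5.17 and 4.05 TPM across the control libraries and at 4.46, 5.96, 5.27 and 6.31 TPM across the knockout libraries, and the groups overlapped. The ratio of *Stam* to *Stam2* within a library does not move with that library's scaling. It was 1.23, 1.06, 1.18 and 1.43 in controls 1 to 4 and 1.91, 1.45, 1.62 and 1.37 in knockouts 1 to 4, so that knockout 4 lay below control 4. *Hgs* (ENSMUSG00000025793), which encodes the ESCRT-0 partner HRS, was the most abundant of these 3 genes, at 26.6 ± 2.67 TPM across the control libraries and 26.5 ± 2.05 TPM across the knockout libraries (SD, 4 libraries each). Its 95% interval in limma ran from -0.23 to 0.23.

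The tetraspanins, membrane proteins used as exosome markers, were among the most abundant vesicle genes. *Cd81* (ENSMUSG00000037706), also the receptor of hepatitis C virus on human hepatocytes, stood at 246.69, 234.05, 249.80 and 234.75 TPM in controls 1 to 4. In knockouts 1 to 4 it stood at 250.82, 287.73, 262.23 and 271.92 TPM. The groups were set apart by about 1 TPM between control 3 and knockout 1. The log2 fold change was 0.15 ± 0.07 (SE; limma adjusted p = 0.633), and it was 0.09 after median-of-ratios scaling, where the groups overlapped.

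The other 4 tetraspanins had overlapping groups. *Cd63* (ENSMUSG00000025351), a late endosome protein, stood at 175.16, 163.42, 189.34 and 104.79 TPM in controls 1 to 4 and at 200.71, 225.88, 141.14 and 194.45 TPM in knockouts 1 to 4. Control 4 was low among the controls and knockout 3 among the knockouts. Its log2 fold change of 0.28 ± 0.19 (SE; limma adjusted p = 0.807) was 0.10 without control 4, 0.19 without knockout 2 and 0.42 without knockout 3.

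*Cd9* (ENSMUSG00000030342), a tetraspanin of the cell surface and of smaller vesicles, stood at 124.73, 105.50, 116.88 and 81.32 TPM in controls 1 to 4 and at 136.28, 132.31, 83.03 and 116.29 TPM in knockouts 1 to 4. The 3 highest libraries, knockouts 1 and 2 and control 1, also had the 3 highest sums of cholangiocyte markers, 469, 647 and 480 TPM. The lowest pair, control 4 and knockout 3, had the lowest sums, 257 and 191 TPM. These 2 libraries also had the lowest sums of macrophage markers, 1170 and 1596 TPM, and of stellate cell markers, 327 and 553 TPM. The cholangiocyte list holds 9 markers, of which 6 were tested, none passed and none was listed at 0 in any library. Its sums were 257 to 480 TPM across the control libraries and 191 to 647 TPM across the knockout libraries. The pairing of *Cd9* with this list was picked out after the values were seen, and its part in the *Cd9* values was not tested.

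*Cd82* (ENSMUSG00000027215), which encodes a tetraspanin known to restrain cell migration, was at 82.8 ± 6.89 and 90.4 ± 8.42 TPM (SD, 4 libraries each), a log2 fold change of 0.12 ± 0.10 (SE; limma adjusted p = 0.845). *Cd151* (ENSMUSG00000025510), a partner of laminin-binding integrins, was at 58.5 ± 3.08 and 58.5 ± 7.93 TPM. Of the 5 tetraspanins, none passed.

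**Figure D4:**
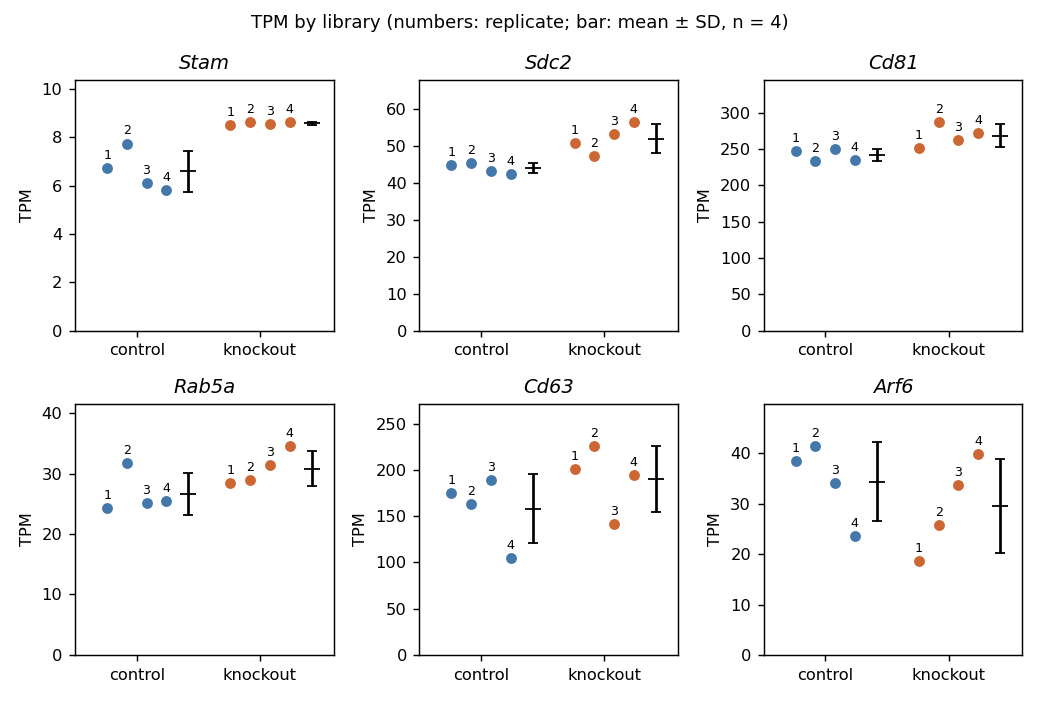
TPM (y axis, from 0) of *Stam*, *Sdc2*, *Cd81*, *Rab5a*, *Cd63* and *Arf6* in each control and knockout library (x axis), with replicate numbers above the points and bars for mean ± SD (n = 4 per group). The knockouts of *Stam*, at 8.51 to 8.65 TPM, lie above all controls, while *Cd63* and *Arf6* overlap widely.

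ESCRT-I and ALIX act next. *Vps28* (ENSMUSG00000115987), an ESCRT-I subunit, had the lowest coefficient of variation of the 36 genes as deposited, though not after median-of-ratios scaling, at 95.40 to 108.00 TPM across the control libraries and 97.89 to 110.18 TPM across the knockout libraries, and its 95% interval in limma ran from -0.16 to 0.19. *Tsg101* (ENSMUSG00000014402), the ESCRT-I subunit that meets HRS and is often blotted as an exosome marker, was at 32.5 ± 4.07 and 33.3 ± 3.38 TPM (SD, 4 libraries each). *Vps37b* lay between 8.49 and 11.78 TPM in all 8 libraries. *Pdcd6ip* (ENSMUSG00000032504), which encodes ALIX, the link from syntenin to ESCRT-III, stood at 31.02, 36.32, 27.95 and 22.74 TPM across the control libraries and at 24.74, 34.08, 34.26 and 34.26 TPM across the knockout libraries. Knockouts 2 to 4 were nearly equal and knockout 1 was lower, near control 4. The groups overlapped in all 4 genes, and none passed.

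The ESCRT-III and VPS4 genes, which cut the vesicle neck, had overlapping groups throughout. *Chmp2a* and *Chmp4b*, a late and a main filament subunit, were the most abundant, at 127 ± 8.89 and 91.4 ± 10.7 TPM across the control libraries and 130 ± 5.10 and 86.5 ± 4.47 TPM across the knockout libraries (SD, 4 libraries each). *Chmp1a*, *Chmp3* and *Chmp6*, the last of which starts ESCRT-III assembly, had means of 47.1, 42.2 and 21.7 TPM over all libraries. *Chmp6* had the smallest p of the 7 (log2 fold change 0.11 ± 0.14 SE; limma adjusted p = 0.933). *Vps4b* exceeded *Vps4a* in every library, with a ratio of *Vps4a* to *Vps4b* of 0.67 to 0.81 in the controls and 0.66 to 0.82 in the knockouts. The ratio of *Chmp2a* to *Chmp4b* was 1.35 to 1.52 in the controls and 1.37 to 1.61 in the knockouts, so these groups overlapped too. Of the 7 genes, none passed, and each 95% interval in limma lay between -0.36 and 0.44.

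Syntenin binds the tails of syndecans and recruits ALIX, and the GTPase ARF6 drives this branch. *Sdc2* (ENSMUSG00000022261), the gene of a heparan sulfate proteoglycan, stood at 44.62, 45.25, 43.12 and 42.34 TPM in controls 1 to 4 and at 50.62, 47.13, 53.12 and 56.50 TPM in knockouts 1 to 4. Every knockout lay above every control, with knockout 2 the nearest. The means were 43.8 ± 1.34 and 51.8 ± 3.96 TPM (SD, 4 libraries each), a 1.18-fold difference, and the log2 fold change was 0.23 ± 0.09 (SE; unadjusted p = 0.0196 and adjusted p = 0.475 in limma). After median-of-ratios scaling it was 0.17, and control 4 at 50.8 scaled TPM then lay above knockout 2 at 43.4, so the groups overlapped.

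*Sdc4* (ENSMUSG00000017009) was the most abundant syndecan, at 157 ± 23.7 and 164 ± 26.6 TPM (SD, 4 libraries each). *Sdc1* (ENSMUSG00000020592), the main syndecan of hepatocytes for lipoprotein remnant uptake, stood at 98.77, 90.09, 88.41 and 74.60 TPM across the control libraries and at 78.62, 98.07, 98.59 and 122.20 TPM across the knockout libraries. Its log2 fold change of 0.16 ± 0.13 (SE; limma adjusted p = 0.858) was 0.06 without knockout 4, 0.27 without knockout 1 and 0.09 without control 4. The ratio of *Sdc2* to *Sdc4* was 0.25 to 0.34 in the controls and 0.27 to 0.38 in the knockouts, and that of *Sdc1* to *Sdc4* was 0.46 to 0.70 and 0.49 to 0.81. Neither ratio separated the genotypes.

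*Sdcbp* (ENSMUSG00000028249), which encodes syntenin-1, stood at 87.52, 90.07, 85.37 and 54.26 TPM across the control libraries and at 63.96, 85.92, 64.11 and 80.32 TPM across the knockout libraries. Controls 1 to 3 lay close together, and control 4 was the lowest library of all. *Arf6* (ENSMUSG00000044147) stood at 38.44, 41.49, 34.12 and 23.52 TPM across the control libraries and at 18.63, 25.88, 33.69 and 39.96 TPM across the knockout libraries. Both groups spread widely, with knockout 1 the lowest and knockout 4 close to the highest control. Its log2 fold change was the lowest of the 34, -0.24 ± 0.23 (SE; limma adjusted p = 0.897), and it was -0.04 without knockout 1, -0.14 without control 2, -0.40 without control 4 and -0.40 without knockout 4.

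Rab GTPases route the endosomes. *Rab5a* (ENSMUSG00000017831), the Rab of early endosomes, stood at 24.32, 31.77, 25.11 and 25.38 TPM in controls 1 to 4 and at 28.37, 28.89, 31.48 and 34.58 TPM in knockouts 1 to 4. Control 2 alone among the controls reached the range of the knockouts. The log2 fold change was 0.21 ± 0.11 (SE; limma adjusted p = 0.716). *Rab7* (ENSMUSG00000079477), the Rab of late endosomes on their way to lysosomes, was at 175 ± 21.4 and 176 ± 16.4 TPM (SD, 4 libraries each), with a 95% interval from -0.22 to 0.25 in limma.

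*Rab11a* (ENSMUSG00000004771), of recycling endosomes, had a log2 fold change of -0.07 ± 0.09 (SE; limma adjusted p = 0.923). *Rab35*, which docks vesicles at the plasma membrane, was at 14.6 ± 2.69 and 12.9 ± 2.02 TPM (SD, 4 libraries each; log2 fold change -0.16 ± 0.16 SE; limma adjusted p = 0.896). In the RAB27 branch, *Rab27a* stood at 1.34, 1.17, 1.27 and 0.55 TPM across the control libraries and 0.74, 1.19, 1.34 and 1.35 TPM across the knockout libraries. *Rab27b* stood at 0.84, 0.28, 0.46 and 0.31 TPM across the control libraries and at 0.58, 0.63, 0.29 and 0.47 TPM across the knockout libraries. *Rab27a* exceeded *Rab27b* in all 8 libraries, by 1.28 to 4.62 times.

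The effectors *Sytl4* and *Exph5* encode SLP4 and SLAC2-B. *Sytl4* stood at 0.83, 0.98, 0.74 and 0.64 TPM across the control libraries and at 1.58, 0.72, 1.03 and 0.84 TPM across the knockout libraries, and *Exph5* at 1.49, 1.73, 1.14 and 1.13 TPM and 1.45, 1.49, 1.82 and 1.87 TPM. The log2 fold change of *Exph5* was 0.17 ± 0.15 (SE; limma adjusted p = 0.874). Both overlapped between the groups. Of the 6 Rab and effector genes tested, none passed.

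Of the raft genes, *Anxa2* (ENSMUSG00000032231), a membrane-binding annexin that exosomes often carry, stood at 204.13, 218.44, 222.27 and 163.01 TPM across the control libraries and at 224.60, 254.90, 186.84 and 232.31 TPM across the knockout libraries. Control 4 and knockout 3 were low, as for *Cd63* and *Cd9*. Its log2 fold change was 0.15 ± 0.12 (SE; limma adjusted p = 0.851), 0.06 without control 4 and 0.24 without knockout 3. *Flot1*, a raft scaffold gene, was at 48.8 ± 4.03 and 46.1 ± 2.58 TPM (SD, 4 libraries each; log2 fold change -0.08 ± 0.09 SE; limma adjusted p = 0.915), and its partner *Flot2* was at 26.6 ± 5.01 and 26.2 ± 4.16 TPM. *Flot1* exceeded *Flot2* in every library, by 1.55 to 2.37 times.

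*Cav1* (ENSMUSG00000007655), the coat protein gene of caveolae and abundant in endothelium, stood at 2.68, 1.64, 1.22 and 0.78 TPM across the control libraries and at 1.08, 4.57, 1.02 and 1.59 TPM across the knockout libraries. Knockout 2 was far above the other knockouts. The 12 endothelial markers were all tested, none passed and none was listed at 0 in any library, and their sum in knockout 2, 153 TPM, lay inside the knockout range of 124 to 155 TPM (controls 97.9 to 210 TPM). The sum of the cholangiocyte markers and that of the 12 stellate cell markers (781 TPM) were highest of the 8 in knockout 2. The sums of macrophage, lymphocyte and neutrophil markers were not highest there, and that of hepatocyte markers was the lowest of the 8 (67252 TPM). The part of these cell types in the *Cav1* value was not tested.

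**Figure D5:**
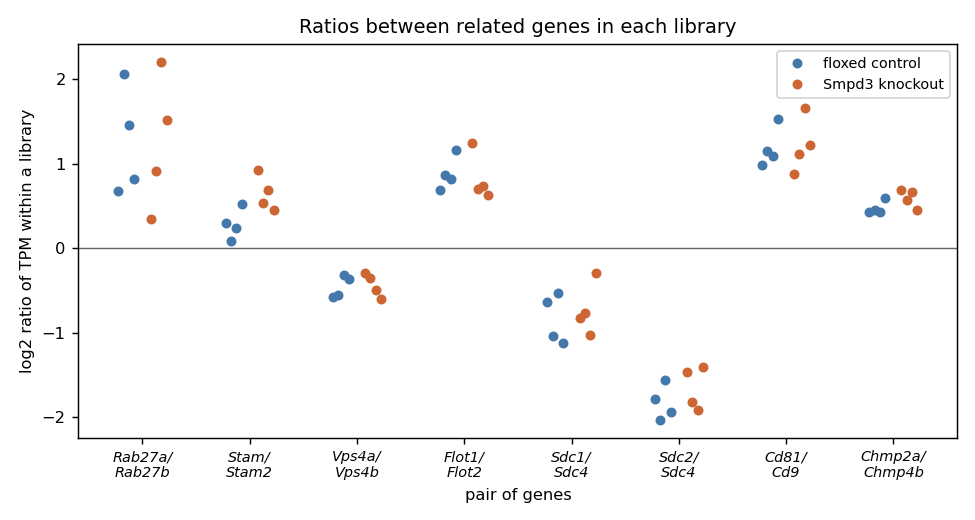
Log2 ratio of TPM between 2 related genes within a library (y axis) for 8 pairs (x axis), with 1 point per library. Controls and knockouts overlap in each of the 8 pairs, *Stam*/*Stam2* included, and the points of *Rab27a*/*Rab27b*, both near or below 1 TPM, spread most.

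Further genes of the same pathways were read from 4 lists of 85 genes, of which 84 were found and 75 tested. No gene of these lists passed in limma, 2 had an unadjusted p under 0.05 (2.67%, against 8.02% of all genes tested), and in 3 the groups did not overlap, where 4.74% of all genes tested did not. Of 18 tested ESCRT genes outside the 36, the smallest p values were those of *Ptpn23*, which encodes the ALIX relative HD-PTP (9.71 to 10.65 TPM among controls, 10.25 to 16.19 TPM among knockouts; limma adjusted p = 0.633), *Chmp7* and *Vps37a* (limma adjusted p = 0.671 and 0.796). *Chmp7*, an ESCRT-III gene of the nuclear envelope, stood at 26.02, 23.18, 22.67 and 24.08 TPM across the control libraries and at 18.94, 21.28, 21.51 and 21.72 TPM across the knockout libraries, without overlap.

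Of 15 tested further tetraspanins, *Tspan5*, *Tspan13* and *Tspan4* had the smallest p, at limma adjusted p of 0.724, 0.733 and 0.780. *Tspan4*, a gene of migrasomes, was at 59.8 ± 2.47 and 52.9 ± 9.69 TPM (SD, 4 libraries each). *Tspan5* stood at 1.22 to 1.80 TPM across the control libraries and 0.68 to 1.19 TPM across the knockout libraries, without overlap. Of 25 tested Rab, effector and membrane fusion genes, *Stx4a*, a plasma membrane SNARE, stood at 33.72, 38.85, 37.13 and 34.30 TPM across the control libraries and at 37.99, 47.71, 50.40 and 45.02 TPM across the knockout libraries (log2 fold change 0.32 ± 0.11 SE; unadjusted p = 0.0127 and adjusted p = 0.397 in limma). Knockout 1 lay within the controls. *Tbc1d10a*, which encodes a GTPase-activating protein for RAB35, and *Unc13d*, a vesicle priming gene, followed (limma adjusted p = 0.778 and 0.811).

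Of 17 tested syndecan, raft and annexin relatives, *Gpc1* (ENSMUSG00000034220), the glypican 1 gene of another heparan sulfate proteoglycan, stood at 14.33, 14.50, 12.08 and 12.61 TPM across the control libraries and at 9.99, 9.97, 9.46 and 9.91 TPM across the knockout libraries. The 4 knockouts lay below every control and close together. Its log2 fold change was -0.41 ± 0.11 (SE; unadjusted p = 0.00334 and adjusted p = 0.250 in limma), so it did not pass, and it ran from -0.46 to -0.31 over the 19 other settings. *Anxa6*, an endosomal annexin, and the glypican gene *Gpc4* had adjusted p of 0.643 and 0.813 in limma.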

How the data were processed

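The deposited table holds TPM values made by the authors, rounded to 2 decimals, for 55416 mouse gene identifiers in 8 libraries. RSEM 1.3.3 appears in the submitters' processing notes, as does GRCh38.p13, a human build, although the identifiers are mouse. The library kit kept strand, per the labels' protocols. Not given in the sources used here: aligner, annotation and strand setting. TPM is relative to each library's total and keeps no depth, so no counting interval is given.

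Symbols matched 52083 identifiers. Genes reaching 1 TPM in 4 or more libraries were fitted as log2(TPM + 1), pseudocount 1, in limma 3.58.1 under R 4.3.3 (lmFit, eBayes with trend, no covariate), adjusted by Benjamini-Hochberg over all 12710 genes at 0.05. The fit was tested on simulated data with normal noise. It recovered 93% of planted 2-fold and 98% of planted 4-fold changes, with 11 wrong calls among the genes left unchanged. Changes were planted only in genes with a control level above about 10 TPM. Smaller changes and changes in genes near 1 TPM were not tried. There were 100 planted changes of each size, more than the 13 genes that passed in the data, and more true changes loosen the adjusted threshold. Noise was drawn separately for each gene, without shifts of a whole library such as that of control 4. The recovered shares are therefore not the power of the comparison in these libraries. In GENCODE M21, 15 of the 36 genes share exon bases with another gene, 11 of them with one on the other strand (*Cd81*, *Rab5a*, *Sdcbp* and *Arf6* among them) and *Stam2*, *Vps28*, *Rab11a* and *Rab27a* with one on the same strand, so their values are less certain. *Vamp7* and *Tf* were not matched by symbol.

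The vesicle genes, lists and settings were chosen with earlier results of these data known. Fold changes are given for genes past the threshold or without overlap, filled by smallest p to 14, and for 3 genes of each further list. Other settings tried were the filter dropped or set to a mean of 5 TPM, pseudocounts of 0.1 and 5, quantile normalization, scaling by median of ratios or by totals without mitochondrial and the top 20 genes, weights per library, eBayes made robust, a replicate block, and each library left out. Leaving out control 4 and knockout 1 together was added after the data were seen.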

Additional observations from a re-analysis of the deposited data

Results flagged for a closer look

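Over 114 groups of 4 libraries (each vesicle gene, *Smpd3*, the named further genes and the 8 ratios, per genotype), 1 library stood apart from the other 3 by Dixon's 95% criterion, a gap that takes up most of the range, in 11, where chance gives about 1 in 20, or 5.7. The groups share libraries and the ratios reuse vesicle genes, so 11 against 5.7 is not read as an excess. Knockout 1 was low for *Pdcd6ip* at 24.74 TPM (others 34.08 to 34.26), *Chmp3* at 35.56 TPM (others 43.45 to 44.90) and *Chmp7* at 18.94 TPM (others 21.28 to 21.72), and high for the log2 ratio of *Flot1* to *Flot2* at 1.25 (others 0.63 to 0.73). Control 4 was low for *Sdcbp* at 54.26 TPM (others 85.37 to 90.07) and high for the log2 ratio of *Chmp2a* to *Chmp4b* at 0.60 (others 0.43 to 0.46). Control 2 was high for *Rab5a* at 31.77 TPM (others 24.32 to 25.38) and for *Tbc1d10a* at 15.80 TPM (others 12.74 to 12.97). Knockout 2 was high for *Cav1* at 4.57 TPM (others 1.02 to 1.59), control 1 for *Tspan5* at 1.80 TPM (others 1.22 to 1.26), and knockout 3 was low for *Gpc1* at 9.46 TPM (others 9.91 to 9.99).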

How the results depend on the processing

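The count of vesicle genes past the threshold was 0 in limma in all 19 other settings, as were the counts of the 4 further lists. The 14 named vesicle genes and 12 named further genes kept their direction and stayed outside the threshold in each setting that tested them. They were picked by lack of overlap or smallest p in the same libraries, so a kept direction was favoured by the choice. Of all 34 vesicle genes tested, 23 were higher in the main fit and 13 without control 4. Vesicle genes at an unadjusted p under 0.05 numbered 2 with all libraries (8.02% of all genes tested). They numbered 1 after median-of-ratios scaling (9.32% of all genes tested) and 1 after quantile normalization (9.83%). The count was 3 with library weights (11.1%), 3 of 36 without a filter (5.76%) and 3 without control 4 and knockout 1 together (10.3%). It was 1 to 3 when 1 library was left out (6.14% to 10.98% of all genes tested). Those without overlap numbered 3, with 1 after median-of-ratios scaling and 3 to 5 when 1 library was left out (4.74% of all genes tested with all libraries, 6.66% to 12.01% with 1 left out). Over all genes the 13 calls became 20 with library weights, 20 after rescaling without mitochondrial and the top 20 genes, 8 and 6 with pseudocounts of 0.1 and 5, 0 without a filter, 0 to 16 with 1 library left out and 0 without control 4 and knockout 1 together. *Smpd3* kept a log2 fold change of -1.89 without a filter (adjusted p = 0.167 in limma), -1.93 without control 4 and knockout 1 together (adjusted p = 0.0603) and -2.06 to -1.76 with 1 library left out. Its log2 fold change was -2.34 and -1.07 with pseudocounts of 0.1 and 5 (adjusted p = 0.0399 and 0.0384 in limma).

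With the replicate block the 13 calls became 0, and *Smpd3* stayed at -1.89 (adjusted p = 0.0818 in limma). The vesicle genes at an unadjusted p under 0.05 became 0, against 5.85% of all genes tested. Deviations of same-numbered libraries correlated at -0.20 to 0.03 across genes, and 0 of 4 libraries correlated best with its own number, so the numbers were not taken as pairs. TPM keeps no depth, so the precision of genes near 1 TPM, such as the RAB27 branch, is unknown beyond the spread between libraries.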
